A study of Tupaia belangeri with 2 samples.

Results

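GAD1, GAD2 and SLC17A6 are 3 of the 23975 gene models counted in whole-brain cells of 2 tree shrew (Tupaia belangeri) embryos. GAD1 and GAD2 encode the glutamate decarboxylases that make the inhibitory transmitter GABA, and SLC17A6 encodes the vesicular glutamate transporter that loads glutamate into synaptic vesicles. The members were taken by gene name in the deposited annotation, where each name has 1 gene model (evm.model.chr1.1060, evm.model.chr2.118 and evm.model.chr18.108). The brains were collected at 4 to 5 postconceptional weeks without any treatment, and 1 droplet library (10x Chromium 3′ kit) was made per embryo, so there is a single condition and n = 2 embryos. The deposited files are raw counts, made against the tree shrew assembly TS_2.0, of unique molecular identifiers (UMIs, each marking 1 captured transcript) per gene model and cell barcode. Whole brains were pooled over all regions, so regions are known here only from marker genes.

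Neurons that release GABA are recognised by GAD1 or GAD2. The GAD1 enzyme is spread through the cell and makes most GABA of the young brain, while the GAD2 enzyme is concentrated at nerve terminals. Glutamate neurons are recognised by a vesicular glutamate transporter, and SLC17A6 is the form known from thalamus, midbrain and hindbrain and from young neurons of the cortex. Most neurons settle on 1 of these transmitters while they leave the cell cycle, under selector transcription factors such as DLX genes in the ventral forebrain, GATA2, GATA3 and TAL1 in the midbrain, and NEUROD and TBR1 in the cortex.

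Embryo 1 has 9241 barcodes with 41868023 UMIs and embryo 2 has 9685 barcodes with 38077767 UMIs. A minimum of 200 genes per cell left 8408 and 9327 cells, or 17735 in all, with medians of 3539 and 3169 UMIs. Haemoglobin genes took 28.7% of the UMIs of embryo 1 and 13.6% of those of embryo 2, and 18 barcode sequences occur in both libraries. The cells formed 17 clusters without help from the members or other genes of GABA and glutamate handling, which were left out of the variable genes. A cluster was called by a type, as in forebrain inhibitory neuron-like, only from at least 3 marker genes, and none of the members was a marker. The whole-brain label held against the markers, with inhibitory and excitatory neuron-like, radial glia-like and dividing clusters present in both embryos.

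GAD2 gave by far the most UMIs of the 3 genes, 8008 in embryo 1 and 14117 in embryo 2. GAD1 gave 676 and 1148 UMIs, and SLC17A6 gave 1062 and 1279. No cell held more than 27 UMIs of GAD2, 6 of GAD1 or 8 of SLC17A6. Embryo 2 had more midbrain inhibitory neuron-like cells (2046 against 961 in embryo 1), and levels are therefore given within clusters. A level is the number of UMIs per 1000000 UMIs of a cluster (CPM). A 3′ UMI count depends on how well the end of each gene model is annotated. Counts of different genes are therefore not read as a difference in expression between them. The GAD1 share of GAD UMIs used below has the same limit and is compared only between groups of cells.

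Both GAD genes were high in the same clusters, the midbrain and forebrain inhibitory neuron-like cells, and SLC17A6 was high in others, the excitatory neuron-like cells. In midbrain inhibitory neuron-like cells (cluster 0, 3007 cells, with LHX1, OTX2, GATA3 and PAX7 among its markers) the GAD2 level was 1186 CPM in embryo 1 and 1332 CPM in embryo 2. In forebrain inhibitory neuron-like cells (cluster 1, 2411 cells, with DLX5, DLX2 and SST) it was 1199 and 1362 CPM. The values of these 2 clusters overlapped, and both lay above all others. The next cluster was cluster 5 (1442 cells), which stayed unnamed and was led by SST, TAU and NFL, with 532 and 558 CPM. GAD1 put the same clusters at the top, but apart from each other, with 158 and 154 CPM in midbrain cells, 58.5 and 62.5 CPM in forebrain cells, and 46.9 and 51.2 CPM in cluster 5. No other cluster exceeded 13.1 CPM of GAD1 in either embryo.

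SLC17A6 peaked in cluster 11 (449 cells, unnamed, led by GNG8, NFL, NEFM and TCF7L2), at 173 and 186 CPM. Midbrain or thalamus excitatory neuron-like cells (cluster 4, 1621 cells, with LHX9, POU4F2, SHOX2 and EBF3) followed at 163 and 153 CPM. Cluster 5 had 107 and 103 CPM, and cortical excitatory neuron-like cells (cluster 8, 805 cells, with NEUROD6, TBR1 and FEZF2) had 78.3 and 91.3 CPM. Each of these 4 clusters was separated from the next in both embryos. Radial glia-like cells came next with 13.5 and 13.3 CPM, and in the other 12 clusters the level stayed at or below 10.3 CPM.

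**Figure D1:**
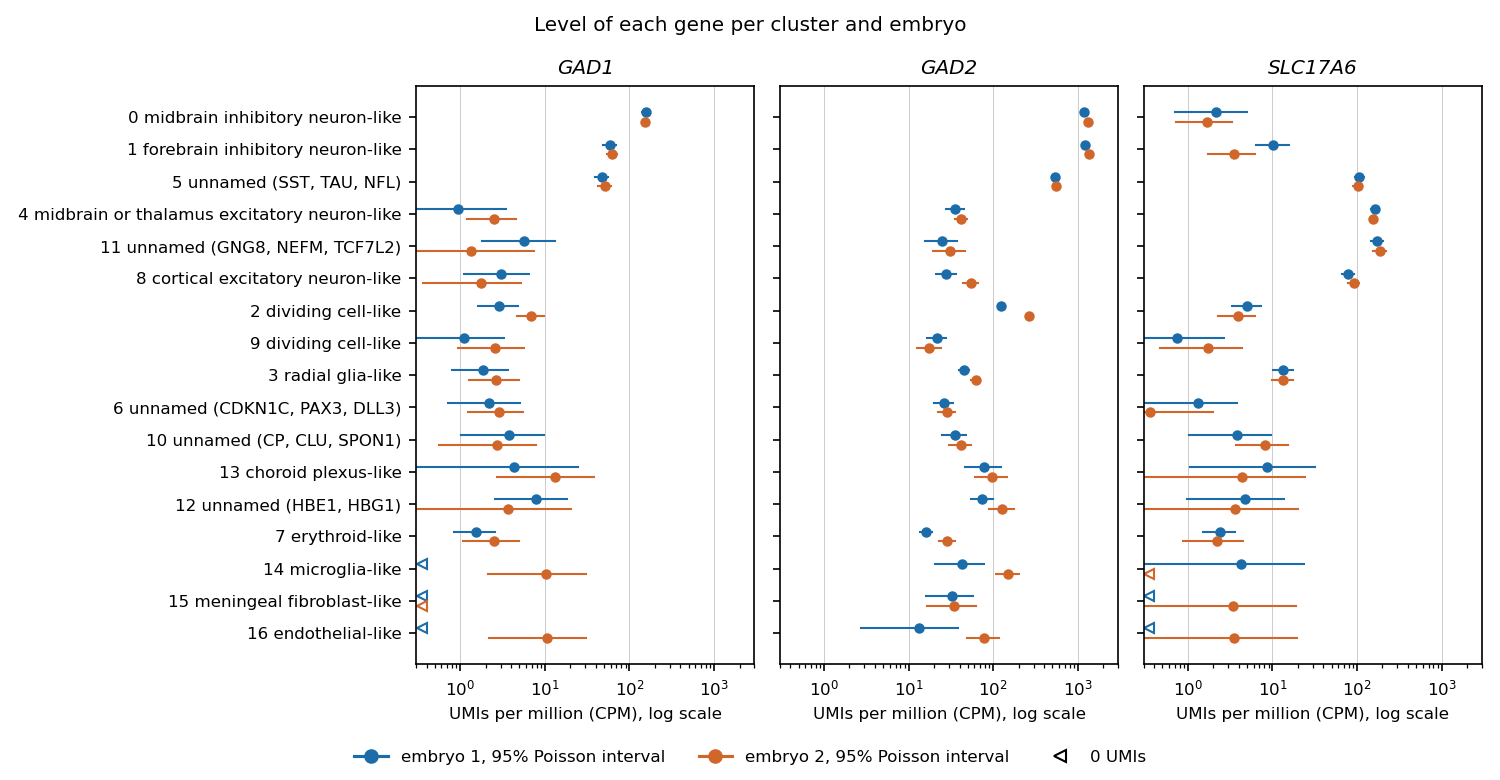
Level of GAD1, GAD2 and SLC17A6 in CPM (x axis, log scale) in each of the 17 clusters (y axis), with 1 point per embryo, exact 95% Poisson intervals that cover counting error only, and open triangles for 0 UMIs. GAD1 and GAD2 peak in clusters 0 and 1, SLC17A6 in clusters 11 and 4, and all 3 genes are present in cluster 5.

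Cells that should not use either transmitter also held UMIs of the members, above all of GAD2, and their levels are called background here. Erythroid-like cells, which should not make GABA, had GAD2 UMIs in 10.2% and 12.4% of cells at median depths of 12416 and 14293 UMIs, with levels of 16.0 and 28.4 CPM. Most of these UMIs came from a small part of the class. At a finer resolution of the clusters, 794 of the 1016 cells had 4.70 and 5.05 CPM of GAD2, in 5.25% and 5.41% of cells, and the other 222 had 65.1 and 130 CPM, in 27.7% and 38.8%. Without the cells of highest doublet score the mean level of the class fell from 22.2 to 9.22 CPM. The parts of free RNA and of doublets in the background were not tested. In microglia-like cells the GAD2 level was 42.4 and 149 CPM, and in endothelial-like cells 13.3 and 77.2 CPM, from 3 to 43 UMIs per embryo. The GAD2 levels of the excitatory neuron-like clusters 4 and 8 and of the unnamed cluster 11 were between 24.8 and 54.5 CPM. They lay within the range of those non-neuronal classes, though above the larger erythroid-like part, and whether they are background was not tested. The same holds for GAD1 in these clusters, which was between 0.949 and 5.63 CPM. For SLC17A6 the erythroid-like class had 2.40 and 2.21 CPM, made up of 0.671 and 0.388 CPM in the 794 cells and 9.88 and 10.1 CPM in the 222. The midbrain inhibitory neuron-like cells, at 2.16 and 1.68 CPM, lay between these parts.

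The UMI sums of each class and embryo were compared with edgeR's quasi-likelihood test, with the embryo as a block and p-values adjusted by Benjamini-Hochberg over the 9617 genes tested. The classes were formed from other genes of the same cells, so the p-values do not show whether such classes exist. They set a difference against a spread between the embryos that edgeR estimates over all classes in the fit and shares among genes. They are thus no measure of how stable a single gene is between the 2 embryos. Between the inhibitory and the excitatory neuron-like classes all 3 members differed, where 25.9% of the genes tested did. GAD1 was higher in inhibitory classes by 5.32 on the log2 scale (SE 0.20, adjusted p = 4.2e-33) and GAD2 by 4.89 (SE 0.085, adjusted p = 8.8e-53). SLC17A6 was lower, with a log2 fold change of -5.18 (SE 0.17, adjusted p = 7.4e-37). The excitatory levels of the GAD genes and the inhibitory level of SLC17A6 are low and near those of non-neuronal classes, and the sizes of these folds depend on such low levels. In cluster 4 of embryo 2, 12 of the 43 cells with both GAD and SLC17A6 and 16 of the 56 with GAD only were among those with the highest doublet scores, against 10 of 380 with SLC17A6 only. In embryo 1 the counts were 2 of 17, 1 of 21 and 7 of 209, so the cells with GAD only (4.76%) were close to those with SLC17A6 only (3.35%) there. The part of doublets was not tested.

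Forebrain and midbrain inhibitory neuron-like cells differed in GAD1, while no difference in GAD2 was found. GAD2 differed by -0.0011 on the log2 scale (SE 0.072, 95% interval -0.18 to 0.18, edgeR adjusted p = 0.997). GAD1 was lower in forebrain cells, with a log2 fold change of -1.38 (SE 0.13, adjusted p = 1.5e-13), and midbrain cells had 2.70 times the forebrain level in embryo 1 and 2.46 times in embryo 2. GAD1 was one of the 22% of genes that passed in this comparison. SLC17A6 passed too, at a log2 fold change of 1.72 towards forebrain cells (SE 0.47, adjusted p = 0.0044), but this rests on 33 UMIs in forebrain and 13 UMIs in midbrain cells. Its forebrain levels, 10.3 CPM in embryo 1 and 3.49 CPM in embryo 2, differed more from each other than the lower one did from the midbrain cells. At a finer resolution of the clusters GAD2 passed at 0.36 (adjusted p = 0.0027) and SLC17A6 did not (adjusted p = 0.059). The OTX2-rich midbrain cells stayed unnamed there and did not enter the midbrain class.

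The GAD1 share of all GAD UMIs differed between the midbrain and forebrain inhibitory neuron-like classes. GAD1 gave 11.8% of GAD UMIs in midbrain inhibitory neuron-like cells of embryo 1 (exact binomial 95% interval 10.6 to 12.9) and 10.4% in embryo 2 (9.65 to 11.1). In forebrain inhibitory neuron-like cells it gave 4.65% (3.89 to 5.52) and 4.39% (3.81 to 5.03). The intervals of the regions did not overlap in either embryo, and cluster 5 lay between them with 8.10% and 8.40%. Such a share compares 2 genes within the same cells, so it does not depend on how many cells a class holds, and the intervals cover counting error only.

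Split at the finer resolution, forebrain cells kept their share in both kinds. Cells with SST, NPAS1 and SOX6, factors and a peptide known from cortical interneurons, had GAD1 shares of 4.32% and 4.40%, and cells with ISL1 and FOXP1, known from striatal projection neurons, had 5.11% and 4.34%. Their GAD2 levels were 1272 and 1352 CPM in the first kind and 1085 and 1387 CPM in the second. Midbrain cells differed among themselves in level. The OTX2 and DSCAM cells, which also counted GATA3 and TFAP2B among their markers, had 224 and 201 CPM of GAD1 and 1539 and 1685 CPM of GAD2. The other kind, called here by GATA3 and TFAP2B though not alone in holding them, had 91.9 and 99.7 CPM of GAD1 and 835 and 921 CPM of GAD2. Both genes were lower in the second kind in both embryos, and the GAD1 share was 12.7% and 10.7% in the first and 9.92% and 9.76% in the second, with overlapping intervals. The kinds differed in depth, with medians of 1909 and 1795 UMIs in the first and 3076 and 3005 in the second. GAD2 gave 1785 and 4300 UMIs in 597 and 1339 cells of the first kind. In the second it gave 954 and 2006 UMIs in 360 and 701 cells, so UMIs per cell differed less than CPM.

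**Figure D2:**
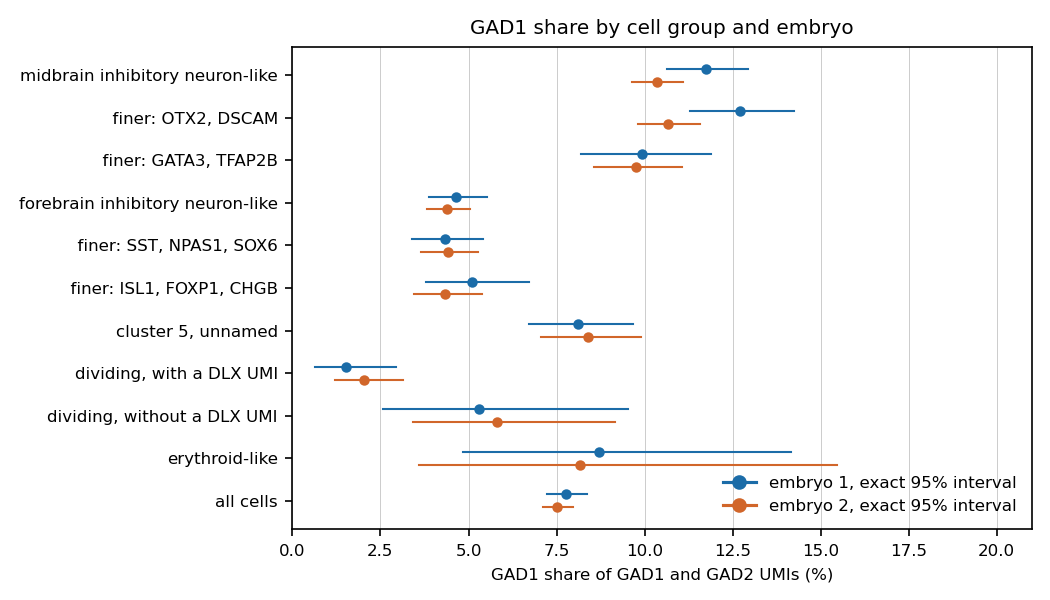
GAD1 share of the GAD1 and GAD2 UMIs in percent (x axis) for inhibitory neuron-like classes, their finer clusters, cluster 5, dividing cells with and without a UMI of DLX1, DLX2 or DLX5, erythroid-like cells and all cells (y axis), with 1 point per embryo and exact 95% binomial intervals. Midbrain groups lie between 9.76% and 12.7%, forebrain groups between 4.32% and 5.11%, and dividing cells with DLX at 1.51% and 2.02%.

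GAD2 was already present in dividing cells of the ventral forebrain type, where GAD1 lay far below its level in forebrain inhibitory neuron-like cells. Of the 2579 dividing cells, 215 in embryo 1 and 283 in embryo 2 had a UMI of DLX1, DLX2 or DLX5, selector genes of forebrain GABA neurons. In these cells the GAD2 level was 401 and 642 CPM, and 60.9% and 79.5% of them held a GAD2 UMI. In dividing cells without a DLX UMI it was 27.3 and 52.5 CPM, within the range of the non-neuronal classes. GAD1 gave 8 and 19 UMIs in the DLX cells, a level of 6.14 and 13.2 CPM. The GAD1 share of GAD UMIs in them was 1.51% (0.65 to 2.95) in embryo 1 and 2.02% (1.22 to 3.14) in embryo 2, below the intervals of the forebrain neuron-like cells in the same embryo. Dividing cells without DLX had shares of 5.29% and 5.82%, and all cells together 7.77% and 7.52%. Depth differed too, with medians of 4736.5 and 4849 UMIs in all dividing cells and 1961 and 2113 in forebrain inhibitory neuron-like cells. CPM therefore sets DLX cells further below the forebrain neuron-like cells than UMIs per cell do. A GAD1 UMI was held by 3.26% and 5.65% of the DLX cells and by 10.9% and 12.6% of the forebrain neuron-like cells. The level of GAD2 in the whole dividing cluster 2, 125 and 266 CPM, differed between embryos together with the share of its cells that held DLX (210 of 989 and 278 of 800). In its cells without DLX the GAD2 level was 32.6 and 81.5 CPM, so it differed there too, and the part of free RNA in this was not tested.

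SLC17A6 was also found in part of the radial glia-like cells. Among radial glia-like cells its level was 53.8 and 83.2 CPM in the 46 and 49 cells with a UMI of EOMES, a factor of the intermediate progenitors of the cortex, and 11.3 and 8.79 CPM in the others. At the finer resolution 289 radial glia-like cells fell into a cluster of 301 cells led by DMRTA1 and EOMES, with 85.6 and 88.9 CPM of SLC17A6 in 155 and 146 cells. The finer cluster that held most other radial glia-like cells had 1.39 and 1.31 CPM. A further finer cluster of 309 and 473 cells was named midbrain or thalamus excitatory neuron-like and led by CDKN1C, a brake on the cell cycle, with SHOX2, EBF3 and DLL3. Of its cells 356 came from cluster 4 and 422 from the unnamed cluster 6, which gave 3 and 1 SLC17A6 UMIs as a whole. The finer cluster gave 62 and 102 SLC17A6 UMIs, so its level of 53.4 and 58.6 CPM joins unlike cells and describes neither source. The LHX9 and POU4F2 cells of the midbrain or thalamus type had 175 and 164 CPM. GAD2 was at 27.5 and 29.3 CPM in the CDKN1C cells.

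Between the excitatory classes, SLC17A6 was lower in cortical than in midbrain or thalamus neuron-like cells, by a log2 fold change of -0.81 (SE 0.14, edgeR adjusted p = 2.1e-06), where 20.3% of genes passed and 9.71% were lower in cortical cells. The midbrain or thalamus level was 2.08 times the cortical level in embryo 1 and 1.67 times in embryo 2. With DESeq2 the adjusted p was 0.053 at the same fold change. GAD1 and GAD2 did not pass, at 0.42 (95% interval -1.25 to 2.08) and 0.17 (-0.37 to 0.71). Their levels in these cells lay within the range of the non-neuronal classes. SLC17A7, the transporter form of mature cortical neurons, has no gene model of that name in the annotation, and SLC17A8, the third form, gave 12 and 15 UMIs over all cells, so SLC17A6 is the only vesicular glutamate transporter that could be followed.

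Against radial glia-like cells, the average over the 4 inhibitory and excitatory classes was higher for GAD1 (2.47, SE 0.37, edgeR adjusted p = 2.8e-08) and for GAD2 (1.85, SE 0.12, adjusted p = 1.5e-22), where 60.5% of genes passed. SLC17A6 did not pass, at 0.36 (SE 0.21, 95% interval -0.16 to 0.88, adjusted p = 0.139). Its average joins classes on both sides of the radial glia-like level of 13.5 and 13.3 CPM. SLC17A6 was lower in midbrain (2.16 and 1.68 CPM) and forebrain (10.3 and 3.49 CPM) inhibitory cells than in radial glia-like cells as a whole. It was higher in midbrain or thalamus (163 and 153 CPM) and cortical (78.3 and 91.3 CPM) excitatory cells. The GAD averages likewise join high inhibitory and low excitatory levels, so these folds describe no single class. The SLC17A6 level of the radial glia-like cells also joins unlike parts at the finer resolution. It was 1.39 and 1.31 CPM in the finer cluster with most of these cells, below both inhibitory classes in both embryos. In the finer cluster led by DMRTA1 and EOMES it was 85.6 and 88.9 CPM. When only cells with at least 1000 genes were clustered, the SLC17A6 level in radial glia-like cells was 1.63 CPM and SLC17A6 passed at 4.33 (adjusted p = 4.3e-16).

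Few cells held UMIs of both transmitter systems. Of the 17735 cells, 6692 had a UMI of GAD1 or GAD2 and 1570 one of SLC17A6, and 166 had both, which is 2.48% of the first and 10.6% of the second. Deeper cells show more genes, so each cell with at least 2000 UMIs was also reduced by calculation to 2000 UMIs. The 13801 cells left gave an expected share with both of 0.353% in embryo 1 and 0.469% in embryo 2, a mean of 0.411% ± 0.0817 (SD, n = 2). Without that step the share was 0.749% and 1.10%.

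In cluster 5, where both transmitter systems were common, they were mostly in different cells. Of its 1442 cells 710 held GAD UMIs only, 264 SLC17A6 only, 47 both and 421 neither. If detection of the genes were independent within the cluster, the shares of each embryo would give 163 cells with both. Cells with an SLC17A6 UMI held GAD UMIs in 14.2% of cases in embryo 1 and 16.0% in embryo 2, and cells without one in 62.7% and 62.9%. At 2000 UMIs per cell the share with both was 1.56% and 1.44%, against a product of the single shares of 7.10% and 7.33%. The separation held within each of the 3 largest parts of the cluster (589, 389 and 235 cells). In the part led by DLX5, ISL1 and NKX2-1 the shares with GAD were 13.6% and 17.0% in cells with SLC17A6 and 64.0% and 66.7% in those without. In the part led by TCF7L2 and LHX9 they were 12.5% and 11.5% against 62.8% and 63.9%, and in the part led by NEUROD6 and NEUROD1 18.4% and 31.2% against 67.9% and 72.6%. By its markers the TCF7L2 and LHX9 part was named midbrain or thalamus excitatory neuron-like within cluster 5. GAD was nevertheless found in 48.2% and 50% of its cells and SLC17A6 in 29.0% and 26.5%.

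The 47 cells differed from the rest of cluster 5 in depth and in their doublet score. Their median was 4410 UMIs in embryo 1 and 5145 in embryo 2, against 3181 and 3220 in cells with GAD only. Cells with SLC17A6 only had medians of 4055 and 3428, so the gap to them was small in embryo 1. Of the cells with both, 4 of 21 and 11 of 26 were among those with the highest Scrublet scores, a measure of likeness to simulated doublets, against 21 of 336 and 67 of 374 cells with GAD only. The part of doublets in the cells with both was not tested. With at least 2 UMIs of each gene, 6 and 7 cells of the cluster remained.

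Some selector factors in cluster 5 were found mostly with 1 of the transmitter systems and others with either. Of all cells of the cluster, 52.2% and 52.8% held GAD, and 21.6% and 21.5% held SLC17A6. Of its cells with a DLX5 UMI, 99 of 112 in embryo 1 and 129 of 143 in embryo 2 held GAD, and 4 and 3 held SLC17A6. Cells with DLX1, DLX2 or TFAP2A also mostly held GAD, with SLC17A6 in at most 8.70% of cells. The inhibitory factors LHX1, TFAP2B and LHX5 were less selective. LHX1 cells held GAD in 87 of 141 and 91 of 144 cases and SLC17A6 in 25 and 26. For TFAP2B the counts were 45 of 74 and 56 of 90 with GAD and 14 and 22 with SLC17A6. For LHX5 they were 14 of 30 and 25 of 43 with GAD and 7 and 12 with SLC17A6. Of the cells with LHX9, a factor of thalamic and midbrain excitatory neurons, 24 of 39 and 29 of 52 held SLC17A6, and 6 and 15 held GAD. Cells with TBR1, a factor of cortical projection neurons, held SLC17A6 in 10 of 21 and 14 of 30 cases and GAD in 4 and 3. Other excitatory factors were found at least as often with GAD as with SLC17A6. Their SLC17A6 shares still lay above that of the whole cluster in both embryos. Their GAD shares lay below that of the whole cluster for EBF3, TCF7L2 and NEUROD6, and above it for NEUROD1. EBF3 cells held GAD in 76 of 172 and 62 of 138 cases and SLC17A6 in 58 and 40, and TCF7L2 cells held GAD in 45 of 120 and 59 of 135 and SLC17A6 in 44 and 38. For NEUROD6 the counts were 43 of 94 and 38 of 73 with GAD and 32 and 25 with SLC17A6, and for NEUROD1 30 of 46 and 23 of 40 with GAD and 12 and 14 with SLC17A6. The genes that led cluster 5 as a whole were others, among them TAU and NFL, parts of the cytoskeleton of axons, and CHL1, an adhesion molecule.

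**Figure D3:**
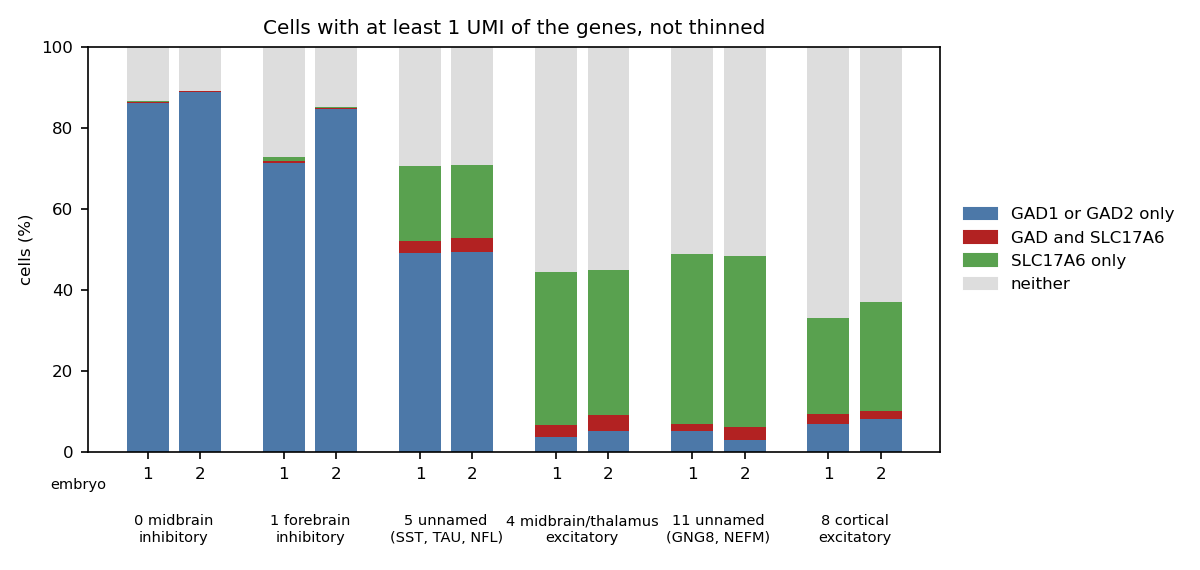
Share of cells (y axis, percent) with at least 1 UMI of GAD1 or GAD2 only, of SLC17A6 only, of both and of neither, in 6 clusters with 1 bar per embryo (x axis). Cells with both make up 3.07% and 3.43% of cluster 5 and at most 4.03% of any bar.

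In the excitatory neuron-like clusters 4 and 8 and the unnamed cluster 11, cells with both, summed over embryos, were about as frequent as the product of the single shares. In cluster 4 the 60 cells with both compare with 54.7 from the product of the single shares, in cluster 8 18 compare with 21.7, and in cluster 11 11 compare with 13.4. At 2000 UMIs per cell the shares with both in cluster 4 were 1.11% and 1.37%, against products of 1.08% and 1.33%. The match was less close in cluster 8 (0.618% and 0.402% against 0.650% and 0.941%). In cluster 11 the embryos differed in direction (0.370% and 1.62% against 1.15% and 1.23%). Cells with SLC17A6 held GAD in 7.52% and 10.2% of cases in cluster 4, and cells without SLC17A6 in 6.40% and 8.70%. In cluster 8 the values were 9.43% and 6.96% with SLC17A6 and 9.36% and 11.6% without. Erythroid-like cells held GAD UMIs in 10.9% and 13.2% of cells. Reduced to 2000 UMIs, the GAD shares were 4.13% and 5.23% in cluster 4 and 3.26% and 4.69% in all erythroid-like cells. The erythroid-like value joins unlike parts. At the same depth the larger part of 794 cells had 1.15% and 1.24%, below cluster 4 in both embryos. The other 222 cells lay above cluster 4 in both embryos. Whether the GAD UMIs of cluster 4 are background was not tested.

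Among inhibitory neuron-like cells SLC17A6 was rare, with 37 of 5418 cells, and 17 of these also held GAD. In the midbrain class 9 cells had both, against 11.5 from the product, and in the forebrain class 8, against 18.4. The forebrain class also held 16 cells with SLC17A6 and no GAD. In the 12 of them from embryo 1 the summed level of inhibitory neuron markers was 294 CPM, against 1584 CPM in cells with GAD only, and the summed level of excitatory neuron markers was 625 against 119 CPM. In the 4 from embryo 2 the inhibitory markers summed to 461 CPM, against 1623 CPM, and the excitatory markers to 0, against 98.0 CPM, so the excitatory markers did not go the same way in both embryos. These cells carried lower inhibitory marker levels than the GAD cells around them in both embryos. The part of misplaced excitatory cells in the SLC17A6 level of the class was not tested.

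**Figure D4:**
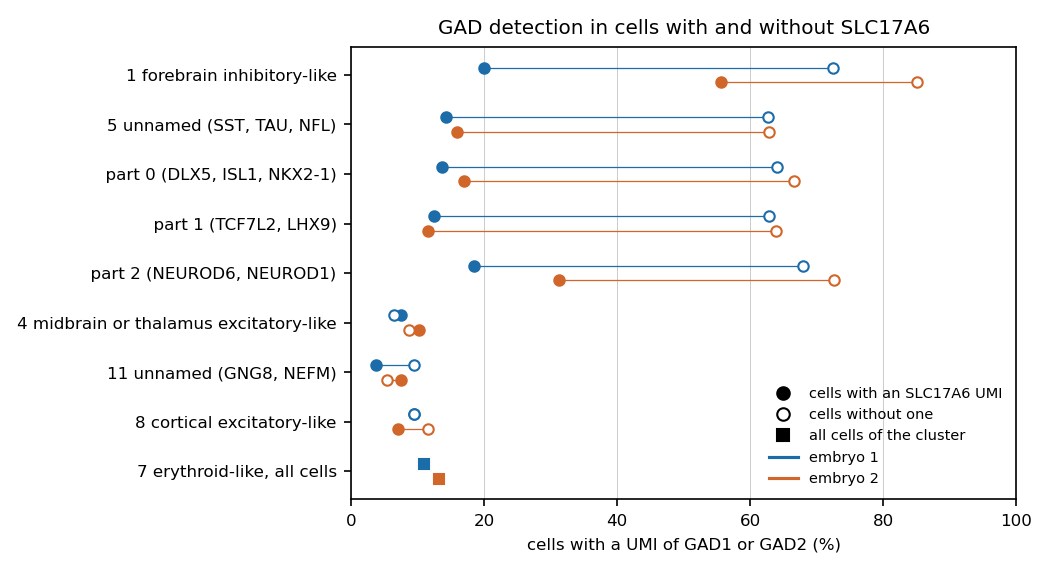
Share of cells with a UMI of GAD1 or GAD2 (x axis, percent) among cells with an SLC17A6 UMI (filled) and without one (open), per cluster and part of cluster 5 (y axis), with 1 pair per embryo, and in all erythroid-like cells (squares). In cluster 5 and its parts of 589, 389 and 235 cells the filled points lie between 11.5% and 31.2% and the open ones between 62.7% and 72.6%. In clusters 4, 8 and 11 both lie between 3.74% and 11.6%.

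Between the named inhibitory and excitatory neuron-like classes, most selector factors of either list went with the transmitter system of that list. Of the 14 inhibitory factors with a gene model, 9 were higher in inhibitory classes among the 11 tested, and of the 15 excitatory ones 10 were lower among the 12 tested, where 11.1% and 14.8% of all genes were higher and lower. All 11 tested inhibitory factors, and all tested excitatory ones except NEUROG1, were on the marker lists used to name the classes. These counts therefore follow in large part from the names and are no separate support. Taken over all clusters, cells with a UMI of GATA3 had 1019 and 1116 CPM of GAD2 and 134 and 135 CPM of GAD1. Cells with DLX5 had a like GAD2 level, 921 and 1034 CPM, and 42.4 and 48.0 CPM of GAD1. Their GAD1 shares were 11.6% and 10.8% for GATA3 and 4.40% and 4.44% for DLX5. SOX14, a factor of midbrain and thalamic GABA cells, had the highest GAD1 levels among the factors found in at least 20 cells of each embryo, 189 and 192 CPM in 44 and 128 cells. GSX2, a factor of ventral forebrain progenitors, had GAD2 levels of 151 and 157 CPM.

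For SLC17A6 the levels were highest in cells with LHX9 (145 and 147 CPM), POU4F1 (168 and 114 CPM) and BARHL2 (115 and 121 CPM) among factors found in at least 20 cells of each embryo, and the order of these 3 differed between embryos. TCF7L2, found in 1505 and 1695 cells, had 54.0 and 63.0 CPM, and NEUROG1, a factor of cells about to become neurons, had 12.1 and 36.9 CPM. TFAP2B was less selective than the DLX and GATA factors, with 369 and 549 CPM of GAD2 and 30.8 and 35.7 CPM of SLC17A6. EBF3 cells had 95.8 and 84.9 CPM of SLC17A6 and also 198 and 230 CPM of GAD2, above the non-neuronal classes in both embryos.

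**Figure D5:**
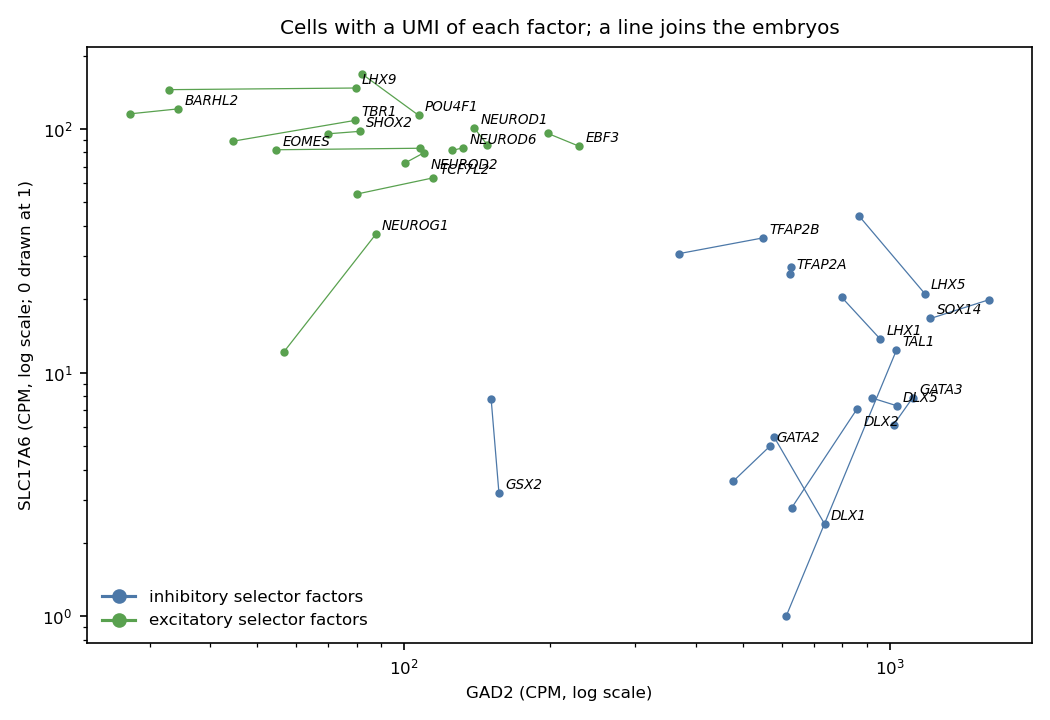
GAD2 level (x axis, CPM, log scale) and SLC17A6 level (y axis, CPM, log scale, with 0 drawn at 1) in cells with at least 1 UMI of a selector factor, for factors found in at least 20 cells of each embryo, with a line joining the embryos. Most inhibitory factors lie to the right of and below most excitatory ones, with the exceptions of GSX2 (GAD2 at 151 and 157 CPM, left of EBF3) and NEUROG1 (SLC17A6 at 12.1 CPM in embryo 1, below LHX5, TFAP2B and TFAP2A).

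Some other genes of the wider pathway also differed between inhibitory and excitatory classes. Of the GABA genes for vesicle transport, uptake and breakdown, 5 of 7 have a gene model and 4 were tested, and 2 were higher in inhibitory classes with none lower (median log2 fold change 1.34, against 0.015 over all genes, of which 11.1% were higher). SLC32A1, which loads GABA into vesicles, gave 18 and 44 UMIs in 1988 and 3430 inhibitory neuron-like cells and none in 959 and 1467 excitatory ones. Set against a floor of 3 counts per library, it was at least 5.54-fold higher in embryo 1 and at least 10.5-fold higher in embryo 2. ABAT, which breaks GABA down, was higher in inhibitory classes by 2.31 (SE 0.20, edgeR adjusted p = 4.6e-15) and, like GAD1, lower in forebrain than in midbrain cells (-1.11, SE 0.18, adjusted p = 8.6e-07). Its levels were 44.9 and 39.7 CPM in midbrain and 22.5 and 17.8 CPM in forebrain inhibitory neuron-like cells.

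Of the genes for glutamate supply and uptake, 11 of 12 have a gene model and 10 were tested, and 1 was higher and 2 were lower in inhibitory classes (median 0.026). These 3 of 10 are near the 25.9% of all genes that passed. SLC1A3, a glutamate uptake carrier of glia, was higher by 1.33 (SE 0.34, edgeR adjusted p = 0.0014), at 16.0 and 19.8 CPM in midbrain but 3.74 and 4.44 CPM in forebrain inhibitory cells, and was lower in forebrain than in midbrain cells (-2.15, SE 0.33, adjusted p = 2.5e-07). SLC1A1, a neuronal uptake carrier, was lower with a log2 fold change of -0.29 (SE 0.11, adjusted p = 0.036), and SLC1A6 with -0.31 (SE 0.12, adjusted p = 0.048). Against radial glia-like cells 6 of the 10 were higher in neuron-like classes and 2 were lower, where 28.9% and 31.6% of all genes were. SLC1A1 was the gene with the strongest rise among them (2.63, SE 0.16, adjusted p = 5.5e-23), and SLC1A3 and GLUL, both of glia, were the ones that fell (-3.69, SE 0.17, adjusted p = 4.8e-30, and -0.73, SE 0.079, adjusted p = 1.4e-12). None of the 11 listed genes of other transmitters was tested, and over all cells they gave between 0 and 43 UMIs per embryo.

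The genes most like each member were found by correlation of log2(CPM + 10) over the 17 clusters, taken per embryo over 6351 named genes with at least 200 UMIs in each embryo. The clusters share libraries and the correlations are descriptions. Ranked by the lower r of both embryos, GAD1 and GAD2 were each other's closest gene (Pearson r = 0.93 in embryo 1 and 0.92 in embryo 2). GAD1 was followed by LHX1, UNCX, NTS, LHX5, DSCAM, CACNA2D3 and ASIC4, with r from 0.75 to 0.95. GAD2 was followed by DLX5, NTS, CACNA2D3, SIX3, LHX1, ANKK1 and a gene model named RL6, with r from 0.68 to 0.85. SLC17A6 was most like a gene model named PACA (r = 0.92 and 0.95), followed by CHL1, LHX9, ROBO1, CACNA2D1, SYT4, NELL2 and GNAI1, with r from 0.83 to 0.92. SLC17A6 itself had r of 0.079 and -0.12 with GAD1 and 0.045 and -0.12 with GAD2.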

How the data were processed

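The authors sequenced 1 library per embryo, ran Cell Ranger 3.1.0 against TS_2.0 and deposited raw UMI counts per gene model and called barcode, without normalization. The deposited tables give no coordinates and no sequences, so none are printed.

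Counts were read in Python 3.11.15 with scipy 1.17.1. Cells with at least 200 genes were scaled to 10000 UMIs and log-transformed. From the 2000 most variable genes, without 24 listed genes of GABA and glutamate handling (20 with a gene model), 20 principal components were computed and the cells were partitioned with leidenalg 0.10.2 (20 neighbours from scikit-learn 1.9.0, resolution 0.5). Markers were counted where 10% or more of a cluster's cells held them at a mean no less than 2 times that of the other cells. A cluster needed at least 3 markers of a type, and stayed unnamed at a tie or when its 10 leading genes held as many or more markers of another type. The words "as many" were added after clusters 5 and 11 were seen, and without them both are named granule neuron-like. Cluster 5 was divided again by the same method. Doublets were kept. Scrublet in scanpy 1.11.5 called 0 and 1 cells, so an alternative left out the highest scores, 566 and 696 cells.

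UMIs were summed per embryo and class and compared under R 4.3.3 by edgeR 4.0.16 (TMM, filterByExpr, quasi-likelihood, embryo as block, 7 named classes of neural lineage in 1 fit with 6 residual degrees of freedom, threshold 0.05). Classes of the same number come from the same embryo, so the block pairs them. The procedure was tested on simulated data. Intervals of fold changes use the t distribution with those degrees of freedom. The edgeR p-values also draw on spread shared among genes, so intervals and p-values rest on unlike degrees of freedom. Shares at 2000 UMIs are exact expectations for draws without replacement, and levels carry exact 95% limits from the Poisson distribution. The binomial and Poisson limits cover counting error only, while the intervals of fold changes also use the spread between libraries estimated in the fit. Precision is limited by 2 embryos and by totals of 38192755 and 35785697 UMIs over the cells kept.

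Named genes were the members, the genes of lists of GABA, glutamate and selector genes given by counts, and for each member the 8 genes most alike over clusters. Groups by DLX, EOMES or other selector UMIs were formed after the data were seen. The members and lists were chosen with earlier results of these data known. Alternatives were at least 1000 genes per cell, high Scrublet scores left out, resolution 1.0, 30 components, members among the variable genes, RLE factors, no gene filter, DESeq2 1.42.0, no block, all named classes in the fit, other thinning depths, a minimum of 2 UMIs, means over cells, each embryo left out, and, chosen after seeing the data, the other naming rule and library totals in place of TMM. Values of some listed genes are not reported here.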

Additional observations from a re-analysis of the deposited data

How the results depend on the processing

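The GAD1, GAD2 and SLC17A6 differences between inhibitory and excitatory classes and the lower GAD1 of forebrain cells kept direction and call under all alternatives with a test. The GAD2 difference between forebrain and midbrain cells lies at 0 and changed sign, at 0.024 without high Scrublet scores, 0.091 with members among the variable genes, 0.012 with RLE factors, 0.014 without a gene filter, 0.0086 with DESeq2, 0.013 with granule neurons named and 0.026 with library totals, none of which passed. It passed at resolution 1.0 (0.36). SLC17A6 in the same comparison no longer passed at resolution 1.0 (1.78) and with members among the variable genes (0.55). With 30 components the cortical against midbrain or thalamus values turned to -1.05 for GAD1 (not passed) and -0.80 for GAD2 (adjusted p = 0.0042), and with DESeq2 SLC17A6 (-0.81) no longer passed. Against radial glia-like cells SLC17A6 passed with at least 1000 genes per cell (4.33), granule neurons named (0.83) and library totals (0.57). The radial glia comparison was not run at resolution 1.0 and with members among the variable genes, where no cluster earned that name. The cause was not tested for these changes, except that the classes themselves change where cells are clustered or named anew.

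Without the replicate block fewer genes were called, 1156 of 9617 between the excitatory classes, 1196 between the inhibitory classes and 1449 between inhibitory and excitatory classes, against 1949, 2115 and 2489 with it, and no call of a member changed. DESeq2 called 1345 genes between the inhibitory classes. With 1 embryo left out, which leaves a value without a test, GAD2 between forebrain and midbrain cells ranged from 0.0025 to 0.029, GAD1 between inhibitory and excitatory classes from 5.39 to 5.69, and GAD1 against radial glia-like cells from 2.21 to 2.56.

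The share of all cells with both transmitter systems was 0.127% at 1000 UMIs per cell, 0.746% at 3000, 0.927% without thinning and 0.147% with at least 2 UMIs of each gene. In cluster 5 these shares were 0.453%, 3.12%, 3.25% and 0.900%, and 1.20% without high Scrublet scores. The GAD2 share of GAD UMIs in midbrain cells was 88.9% and became 90.2% at resolution 1.0. Levels of the classes moved beyond the SD of the embryos in 37 cases and not in 125. The 125 include every case with an embryo left out. With 2 embryos such a case cannot move beyond that SD, so the 125 overstate how stable the levels are. Low GAD UMI counts outside inhibitory cells, down to 0 per embryo, limit what can be read there.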

Other observations

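SLC32A1, the vesicle transporter of GABA, had its highest level in cluster 12 (397 cells, unnamed, led by the embryonic globins HBE1 and HBG1). It gave 16 UMIs in 260 cells of embryo 1 and 3 UMIs in 137 cells of embryo 2, or 25.3 and 10.9 CPM, against 2.16 and 5.68 CPM in midbrain and 6.09 and 5.39 CPM in forebrain inhibitory neuron-like cells. The 3 UMIs of embryo 2 are at the floor of 3 counts, so this rank rests on embryo 1. GAD1 gave 5 and 1 UMIs in that cluster and GAD2 74.3 and 127 CPM, in 8.08% and 10.2% of its cells.

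SLC1A3, a glutamate uptake carrier, had its highest level in cluster 10 (461 cells, unnamed, led by CP, CLU and SPON1), with 292 and 209 CPM. In the 70 cells of cluster 5 led by PCP4 and CALB1 GAD was found in 36 of 44 and 20 of 26 cells, and SLC17A6 in 1 and 0. These genes and groups were chosen after their values were seen.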
